A study of Mus musculus with 6 samples.

Results

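Of 1447 peaks of captured methylated DNA in mouse induced neurons at 3 dpi, 449 (31%, exact 95% interval 28.7 to 33.5) overlapped a peak in each of the other 4 neuronal libraries. They are the stretches of the genome at which every neuronal library of the series had a peak. They were chosen from the deposited peak lists: each position of the 3 dpi list was counted once and kept where at least 1 bp of it lay inside a peak of the 1 dpi, 5 dpi and 7 dpi lists and of the primary neuron list. Taken singly, the other lists held a peak at 55.2% (1 dpi), 75.3% (5 dpi), 56.5% (7 dpi) and 55.4% (primary neurons) of the 1447. The choice therefore rests on measured values of all 5 libraries, and the presence of these peaks in them is not a result. The list of mouse embryonic fibroblasts (MEF) played no part in the choice.

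The study followed DNA methylation while fibroblasts were turned into neurons, in cells of ICR mice at 3-5 passages per the labels. The induced neurons were made from MEF and were sampled at 1, 3, 5 and 7 dpi, an abbreviation that the labels do not spell out and that is used here as the name of the 4 times. Primary neurons came from the hippocampus of 1-day-old pups and were the positive control. MEF came from E13.5 embryos and were the negative control. Each group had 1 library, and an input library served all 6. How the neurons were induced is not given in the sources used here, and since DNA was measured, the cell types could not be checked against the expression of marker genes.

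In mammals DNA methylation is placed mainly on cytosines followed by guanine (CpG). Methylated DNA immunoprecipitation (MeDIP) captures fragments with an antibody against methylated cytosine. Its signal depends largely on both the number of CpG sites and the methylation on them. Stretches with few CpG usually give little signal however methylated they are. Most of the mammalian genome is methylated in fibroblasts and neurons alike, while CpG-rich promoters of active genes are usually free of it. A library averages over all cells of a culture, so that much methylation in few cells and little in many cannot be told apart.

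Sequence in a few of these peaks can be shown where RefSeq promoter windows (300 bases, from 250 before to 50 after a gene's start) lie in them. Such windows do not stand for the common peaks as a whole, most of which lay away from promoters. Of the 449 common peaks 6 overlapped a window (1.34%), as did 8 of the other 998 (0.802%) and 0.968% of all 3 dpi peaks. In all 4 windows lay in a common peak over at least 280 of their 300 bases. They are printed 5′ to 3′ on the gene's strand in GRCm38.p6, the same assembly as mm10, with every CpG in capitals. Vmn2r29, a vomeronasal receptor gene, has its window at chr7:7278240-7278539 on the minus strand with 23 CpG. The noncoding RNA gene 4930563M20Rik has its window at chr8:116801363-116801662 on the minus strand with 32 CpG. From 116801401 to 116801640 of it the 7 dpi library had 0 reads, in a region that the authors listed as lower than MEF. Gm52481 at chrY:90742479-90742778 and Gm33272 at chrY:90793437-90793736, both on the plus strand, have 20 and 39 CpG and lie in common peaks that the authors assigned to Erdr1.
Vmn2r29: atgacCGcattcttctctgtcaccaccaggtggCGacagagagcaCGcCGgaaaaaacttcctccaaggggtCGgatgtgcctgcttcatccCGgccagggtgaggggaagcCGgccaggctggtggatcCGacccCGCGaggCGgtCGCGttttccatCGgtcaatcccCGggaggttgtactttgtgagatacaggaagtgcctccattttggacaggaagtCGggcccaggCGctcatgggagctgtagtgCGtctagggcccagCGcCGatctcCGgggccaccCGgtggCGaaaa
4930563M20Rik: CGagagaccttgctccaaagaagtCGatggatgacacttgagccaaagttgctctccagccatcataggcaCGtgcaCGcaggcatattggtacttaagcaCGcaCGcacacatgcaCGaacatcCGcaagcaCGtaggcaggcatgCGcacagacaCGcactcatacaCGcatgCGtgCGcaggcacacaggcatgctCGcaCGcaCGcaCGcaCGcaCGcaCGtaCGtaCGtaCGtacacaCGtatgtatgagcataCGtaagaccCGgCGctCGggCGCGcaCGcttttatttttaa
Gm52481: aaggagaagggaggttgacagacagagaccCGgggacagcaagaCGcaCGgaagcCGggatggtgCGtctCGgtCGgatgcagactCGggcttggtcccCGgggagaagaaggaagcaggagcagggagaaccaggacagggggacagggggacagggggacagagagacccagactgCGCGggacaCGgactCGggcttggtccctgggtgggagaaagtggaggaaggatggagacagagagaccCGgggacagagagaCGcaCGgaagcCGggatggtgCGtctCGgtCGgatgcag
Gm33272: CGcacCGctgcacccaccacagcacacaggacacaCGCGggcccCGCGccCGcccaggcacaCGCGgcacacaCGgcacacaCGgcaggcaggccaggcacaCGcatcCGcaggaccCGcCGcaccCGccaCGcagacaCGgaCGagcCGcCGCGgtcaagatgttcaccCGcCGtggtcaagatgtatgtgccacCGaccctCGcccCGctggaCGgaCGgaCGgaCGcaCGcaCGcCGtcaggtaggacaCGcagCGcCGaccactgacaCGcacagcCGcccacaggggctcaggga

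The median over all 32851 windows was 7 CpG, with an upper quartile of 20. As many CpG as in these windows were found in 21.5% of all windows for Vmn2r29, 9.52% for 4930563M20Rik, 26.5% for Gm52481 and 4.45% for Gm33272. The windows of Wiz and Gm46731 overlapped a common peak by 16 and 39 bases, and are not shown.

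The common peaks lay mostly away from promoters. In the authors' classes 9 were at a promoter (2%, 0.921 to 3.77), 85 in a gene body (18.9%, 15.4 to 22.9) and 355 between genes (79.1%, 75 to 82.7). Over all 1447 peaks at 3 dpi the promoter class also held 2%. The other 998 peaks of that list were divided in much the same way, with 20 at promoters (2%), 207 in gene bodies (20.7%) and 771 between genes (77.3%). The intervals of the 2 sets overlap in each class. The distance from summit to assigned transcription start site (TSS) had a median of 44261 bp in common peaks and 54478 bp in the other 3 dpi peaks. Intervals here and below are exact Clopper-Pearson intervals that cover counting error only, and with 1 library a group there is no replicate check of any difference.

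The authors' class names 1 gene a peak and is not the only way to place it. Of the 355 common peaks called intergenic, 114 (32.1%, 27.3 to 37.2) lay in the span of a gene in RefSeq, 80 of them in that of a protein-coding gene. For the other intergenic 3 dpi peaks the share in a gene span was 28.9% (25.7 to 32.3). The common peak assigned to Dtnbp1 lay in Jarid2, whose protein binds the Polycomb complex that methylates histones. The peak assigned to Txndc11 lay in Zc3h7a, and that assigned to Nrbp2 in Eppk1, which encodes the cytoskeletal linker epiplakin. Of the 85 gene body peaks, 76 lay in the RefSeq span of their assigned gene.

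**Figure D1:**
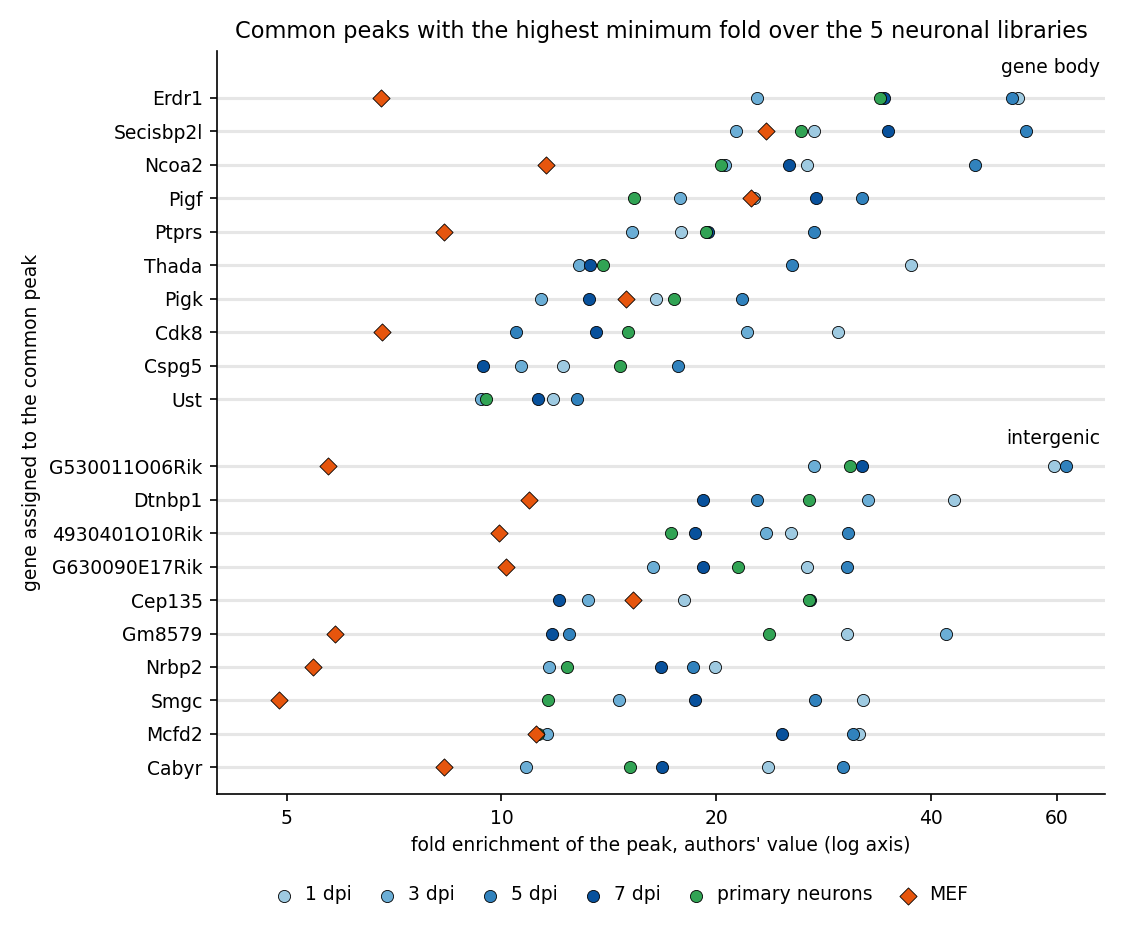
Fold enrichment of the 10 gene body and 10 intergenic common peaks with the highest minimum fold over the 5 neuronal libraries, by library, on a log axis; each point is 1 peak in 1 library, circles are neuronal libraries and diamonds MEF, and no diamond means no MEF peak. In the G530011O06Rik row the neuronal points lie between 27.4 and 61.8 and the MEF point at 5.71; in the Pigf row the MEF point at 22.3 lies among the neuronal ones.

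Fold enrichments and tags at the summit come from the authors, who gave them per peak, and serve here to describe and rank peaks within a list. Ranked by the lowest fold over the 5 neuronal lists, the strongest common peak was intergenic on chromosome X and assigned to G530011O06Rik (chr X, 170018425 to 170020095 in mm10). Its fold enrichments were 59.4, 27.4, 61.8 and 32.0 at 1, 3, 5 and 7 dpi, with 30.7 in primary neurons, against 5.71 in MEF. In RefSeq it lies in the span of a transcribed pseudogene on X that also bears the name Erdr1. It ranked 1, 6, 1, 3 and 3 in the neuronal lists and 1156 among the 2165 peaks of MEF. A peak of the authors' gene body class assigned to Erdr1, an erythroid differentiation regulator gene, came next, on chromosome Y (90793106 to 90794717). Its folds were 53.0, 22.8, 51.9 and 34.3 at 1, 3, 5 and 7 dpi, with 33.9 in primary neurons, against 6.78 in MEF. In RefSeq it lies in the span of Gm33272, a noncoding RNA gene, and holds the window of that gene printed above. Reads of this peak and of that at G530011O06Rik may come from either sex chromosome, as described below. Ranks from lists of unequal length, and folds of libraries of unknown depth, show no change between conditions.

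Autosomal gene bodies followed. Secisbp2l, whose protein is related to the SECIS-binding factors of selenoprotein synthesis, had folds of 27.4, 21.3, 54.3 and 34.7 at 1, 3, 5 and 7 dpi, 26.3 in primary neurons and 23.5 in MEF (chromosome 2, 125765953 to 125767145). It was the strongest peak of the MEF list. Ncoa2, a coactivator of nuclear receptors, had 26.8, 20.5, 46.1 and 25.2 at the 4 times, 20.3 in primary neurons and 11.5 in MEF. Pigf, which acts in the synthesis of glycosylphosphatidylinositol (GPI) anchors, had 22.6, 17.8, 31.9 and 27.6 at the 4 times, 15.3 in primary neurons and 22.3 in MEF, where it ranked 2. Its common peak was also among the longest, at 2396 bp. In these 3 genes the order of the libraries differs, and the 5 dpi fold was the highest of the 6 in each.

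Pigk, a subunit of the enzyme that attaches GPI anchors, had folds of 16.4, 11.4, 21.8 and 13.3 at 1, 3, 5 and 7 dpi, 17.4 in primary neurons and 14.97 in MEF. Ptprs, a receptor tyrosine phosphatase of neurons, had 17.8, 15.2, 27.4 and 19.4 at the 4 times, 19.4 in primary neurons and 8.31 in MEF. Cdk8, the kinase of the Mediator complex, had 29.6, 22.1, 10.5 and 13.6 at the 4 times, 15.1 in primary neurons and 6.81 in MEF. The remaining 3 of the 10 leading gene body peaks had no MEF peak. They were Thada, with neuronal folds between 12.8 and 37.4, Cspg5, which encodes a chondroitin sulfate proteoglycan of the nervous system, between 9.42 and 17.7, and Ust, a sulfotransferase of chondroitin and dermatan sulfate, between 9.354 and 12.8.

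Among intergenic peaks, those assigned to Dtnbp1, 4930401O10Rik, G630090E17Rik, Cep135, Gm8579, Nrbp2, Smgc, Mcfd2 and Cabyr followed that of G530011O06Rik. The Dtnbp1 peak had folds of 43.1, 32.6, 22.8 and 19.15 at 1, 3, 5 and 7 dpi, with 26.9 in primary neurons, against 10.9 in MEF. The Gm8579 peak, strong at 3 dpi with a fold of 41.9, had 30.5 at 1 dpi, 12.4 at 5 dpi, 11.8 at 7 dpi, 23.7 in primary neurons and 5.85 in MEF. All 10 had a MEF peak, with MEF folds between 4.87 at Smgc and 15.3 at Cep135. The peak with the highest 3 dpi fold, assigned to Txndc11, was also common to the 5 libraries. Its folds were 46.0, 44.9, 9.51 and 14.0 at the 4 times, 32.8 in primary neurons and 7.98 in MEF.

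**Figure D2:**
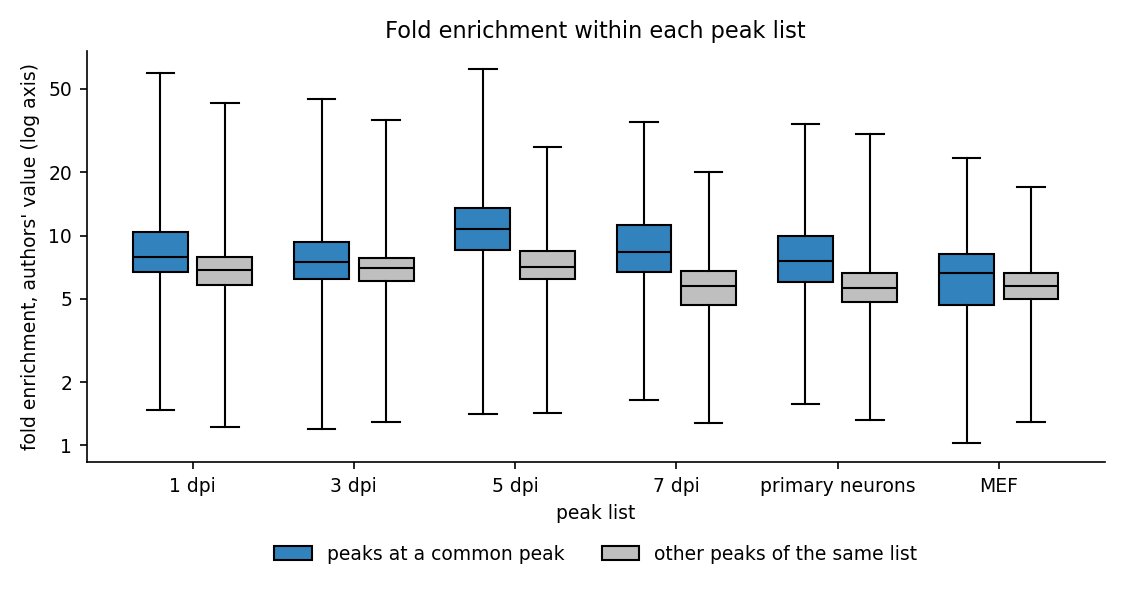
Fold enrichment (authors' value, log axis) within each of the 6 peak lists, for peaks that overlap a common peak (blue, left) and the other peaks of the same list (grey, right); boxes show quartiles, the line is the median, and whiskers reach the lowest and highest value. The blue median lies above the grey one in each list, from 7.52 against 6.97 at 3 dpi to 10.7 against 7.06 at 5 dpi.

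Within each list the peaks at common positions had higher folds at the median than the rest. The medians were 7.94 against 6.86 at 1 dpi (438 peaks and 1448 others), 7.52 against 6.97 at 3 dpi (449 and 998) and 10.7 against 7.06 at 5 dpi (437 and 3481). They were 8.36 against 5.73 at 7 dpi (442 and 13649) and 7.58 against 5.65 in primary neurons (443 and 6193). These 5 lists chose the peaks, so the gap is a description of the choice. In MEF, which did not, 189 peaks at common positions had a median of 6.65 and the other 1976 one of 5.73. The 1976 include MEF peaks that overlap no 3 dpi peak. At the 112 other 3 dpi peaks with a MEF peak, the MEF fold had a median of 6.32. Higher MEF folds were thus not confined to common positions. Of the 10 strongest peaks of each list, 9, 9, 10 and 10 lay at a common position at the 4 times in order and 9 did in primary neurons, and 6 of the 10 in MEF. Peaks at common positions made up 23.2% of the 1 dpi list, 11.2% of the 5 dpi list, 3.14% of the 7 dpi list, 6.68% of the primary neuron list and 8.73% of the MEF list.

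The order of the common peaks by fold was partly shared between libraries. Spearman's rho of fold enrichment across the 449 peaks lay between 0.45 (3 and 7 dpi, and also 1 and 3 dpi) and 0.63 (1 and 5 dpi) for pairs of neuronal libraries. For each neuronal library with MEF it lay between 0.44 and 0.58 over the 188 peaks with a MEF peak. Without 27 peaks of very many tags, described below, the ranges were 0.34 to 0.57 and 0.20 to 0.40. These values describe peaks that share the input library and the position, and were not tested. Of the 449 peaks 379 had a fold of at least 5 in all 5 neuronal lists, 22 of at least 10, 9 of at least 15 and 4 of at least 20.

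Summits of the libraries lay close together. The 3 dpi summit lay within 100 bp of the nearest summit at 1 dpi in 70.4% of common peaks, at 5 dpi in 71.7%, at 7 dpi in 62.4% and in primary neurons in 67.5%. For the other 3 dpi peaks that overlapped a peak of that list, the shares were 68%, 70.2%, 60.4% and 65.7%, with overlapping intervals. With MEF the share was 64.4% (57.1 to 71.2) of 188 common peaks and 56.2% (46.6 to 65.6) of 112 others.

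The rule needs 1 shared bp, but few peaks came near that limit. The smallest overlaps were 94 bp at Pet2, 119 bp at Hpd, 122 bp at Gm10319 and 147 bp at 4930563M20Rik. At least 300 bp were shared in every list by 434 of the 449 peaks. Just outside it stood 3 dpi peaks with a gap to the missing list of 62 bp at Atp6v1h, 80 bp at Llgl1 and 164 bp at Peg10, an imprinted gene. In all 317 peaks were found in 3 of the 4 other lists. They lacked a peak at 1 dpi in 95 cases, at 5 dpi in 6, at 7 dpi in 107 and in primary neurons in 109.

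A MEF peak overlapped 188 of the 449 common peaks (41.9%, 37.3 to 46.6), against 112 of the other 998 peaks at 3 dpi (11.2%, 9.33 to 13.3). Over all 1447 peaks the share was 20.7%. It was higher the more neuronal lists held the peak: 2.54% (0.829 to 5.82) of 197 peaks found in none of the other 4 lists, 6.8% (3.77 to 11.1) of 206 in 1, 12.6% (8.93 to 17.1) of 278 in 2 and 18.3% (14.2 to 23) of 317 in 3. The interval of the common peaks does not overlap that of any smaller number of lists. All libraries share the input library, and differences between conditions were not tested.

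Length moved with this share. Common peaks had a median length of 624 bp (480 to 6406), against 517.5 bp (480 to 1387) in the other 3 dpi peaks. A longer peak has more bases with which to overlap another, so length is tied to the rule. Of the peaks of 480 bp, the shortest length in the lists, 10.3% were common to the 5 libraries. The share was 25.1% above that and under 600 bp, 45% from 600 to under 800 bp, 58% from 800 to under 1000 bp and 87.7% of the 57 peaks of 1000 bp or more. Within each of these lengths the MEF share was higher in common peaks. It was 16.1% (5.45 to 33.7) against 4.44% (2.32 to 7.63) at 480 bp, 31% (24.1 to 38.5) against 11% (8.36 to 14) above that and under 600 bp and 40.3% (32.3 to 48.6) against 15.9% (10.9 to 22.1) from 600 to under 800 bp. Above that the intervals overlapped, with 62.7% (48.1 to 75.9) against 32.4% (18 to 49.8) from 800 to under 1000 bp and 78% (64 to 88.5) of 50 against 57.1% (18.4 to 90.1) of 7 peaks of 1000 bp or more. At 480 bp they overlapped as well. The choice also went with peak strength. In the highest of 4 groups by 3 dpi fold 49.7% of the peaks were common, against 21.5% to 26.9% in the lower groups. Of the peaks with a fold of 10 or more 65.4% were common. The MEF share of common and other peaks was not compared within these fold groups, so the part of strength in it was not tested.

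**Figure D3:**
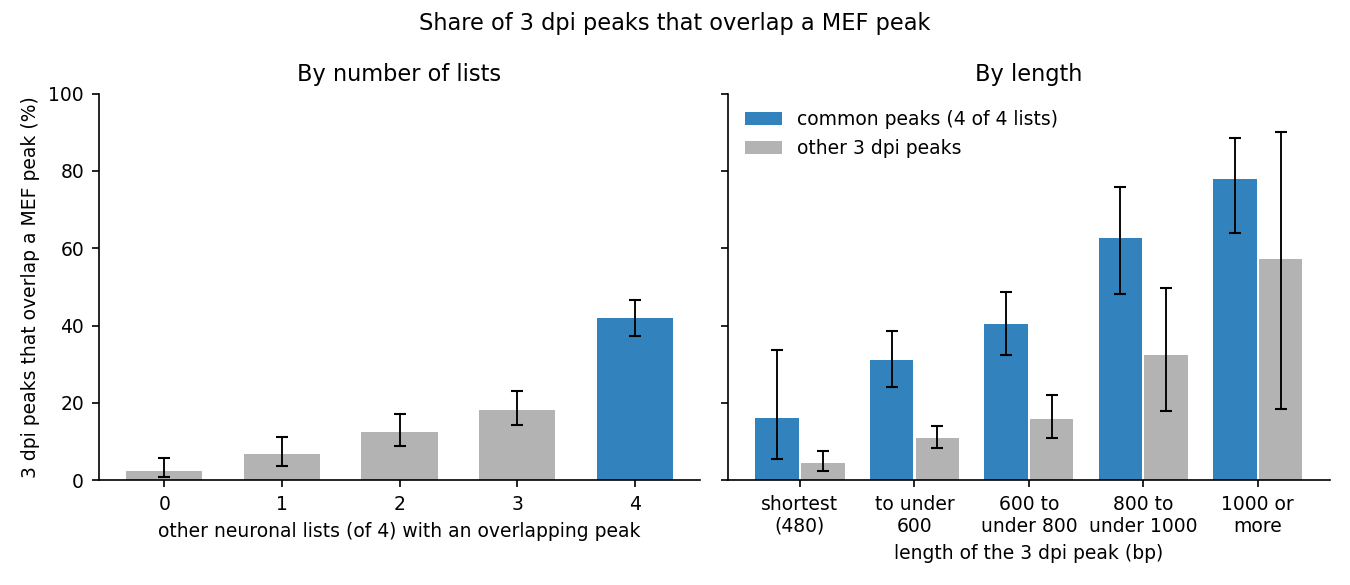
Percent of 3 dpi peaks that overlap a MEF peak, by the number of other neuronal lists with an overlapping peak (left) and by length of the 3 dpi peak (right), with common peaks in blue and other 3 dpi peaks in grey; bars are shares and error bars exact 95% intervals. The share reaches 41.9% for peaks in 4 of the 4 lists, and the blue bar is above the grey one at each length, with overlapping error bars at the shortest length and in the groups from 800 bp on.

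The common peaks with a MEF peak were longer, with a median of 697.5 bp against 578 bp in the 261 without one. Their 3 dpi fold had a median of 8.44 against 7.25. The MEF share was 46.4% in the lowest of 4 equal groups by minimum fold, 29.5% and 33.9% in the groups between and 57.5% in the highest. The lowest group holds the 27 peaks of very many tags described below, whose minimum folds were at most 3.54. Of those 27 peaks 23 had a MEF peak. Of the 22 common peaks with a fold of at least 10 in all 5 neuronal lists 21 had a MEF peak, Thada being the exception. Promoter, gene body and intergenic classes held 7, 42 and 139 of the 188 peaks with a MEF peak, and 2, 43 and 216 of the 261 without.

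Besides Secisbp2l, Pigf, Cep135 and Pigk, the 10 common peaks with the highest MEF folds lay at Chd4, 1500015O10Rik, Ano6, Ncmap, Ranbp3l and Gm16998. Chd4, a chromatin remodeller of the NuRD complex, had 15.5, 14.7, 13.3 and 11 at 1, 3, 5 and 7 dpi, 5.81 in primary neurons and 13.49 in MEF. The peak at 1500015O10Rik had 18.7, 10.8, 28.8 and 18.1 at the 4 times, 5.97 in primary neurons and 13.3 in MEF. At both, the primary neuron fold was the lowest of the 6.

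Peaks common to the neuronal libraries without a MEF peak were chosen for naming after their values were seen. Behind Thada the highest minimum folds were at Pfdn4, a subunit of the prefoldin chaperone (9.84 to 20.5), Prkab2, a subunit of AMP-activated kinase (9.53 to 20.01), and Hspb3, a small heat shock protein gene (9.53 to 11.9). Dpysl5, which encodes a collapsin response mediator protein of growing axons, was picked from further down this order. It had a gene body peak with folds of 8.36 to 12.8. A missing MEF peak says that the authors' list had none there, not that MEF had no methylated DNA.

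A small set of common peaks stood apart by tags. Of the 449, 27 had at least 1000 tags at the 3 dpi summit, against 1 of the other 998 peaks, Ly6c2. Except at Rn45s, their folds were low: in 26 of them the 3 dpi fold was between 1.20 and 1.96, and MEF folds were between 1.02 and 2.29 in the 22 with a MEF peak. The largest, assigned to Lrrc4c but 1199460 bp from its TSS, had 1254525, 1030196, 1310434 and 1468093 tags at 1, 3, 5 and 7 dpi, 1744275 in primary neurons and 1069523 in MEF. Its fold enrichments were 1.57, 1.35, 1.55 and 1.98 at the 4 times, 1.96 in primary neurons and 1.18 in MEF. Of the 27 peaks 17 were on chromosome 9, 15 of them assigned to Mir101c, a microRNA gene, between 3000478 and 3038582 next to the start of the assembled chromosome. These 15 had 6122 to 112114 tags at 3 dpi and 12 had a MEF peak. Without the 27 peaks the MEF share was 39.1% (34.4 to 43.9) of 422 common peaks, against 11.1% (9.25 to 13.3) of 997 others.

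**Figure D4:**
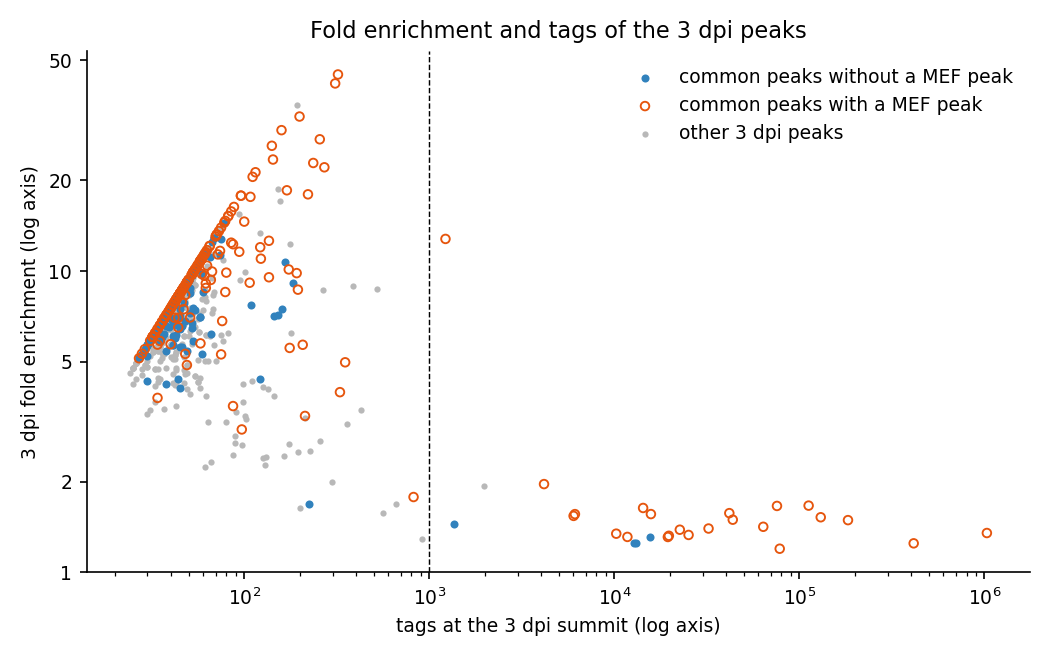
Fold enrichment against tags at the summit for the 1447 peaks of the 3 dpi list, both on log axes, with common peaks without a MEF peak in blue, common peaks with one as open orange circles and other peaks in grey; the dashed line marks 1000 tags. Most peaks lie along an edge where fold goes up with tags, and 26 of the 27 common peaks right of the line lie at folds under 2.

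Rn45s, the gene of the precursor of ribosomal RNA, was the exception and held the longest common peak, 6406 bp on chromosome 17 (39842754 to 39849159). Its tags were 2914, 1223, 534 and 324 at 1, 3, 5 and 7 dpi, 866 in primary neurons and 621 in MEF. The folds were 20.7, 12.8, 3.54 and 6.11 at the 4 times, 7.61 in primary neurons and 6.15 in MEF. Ribosomal RNA genes exist in many copies, and how reads that match several places were treated is not given in the sources used here, so that the value of any 1 copy is uncertain. The other long common peaks were at Smgc (4010 bp), Erdr1 (3233 bp), Pigf (2396 bp) and 1810010H24Rik (1805 bp).

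Common peaks were spread over the chromosomes with a few local groups. Merged at a distance of at most 5 kb they made 420 places, of which 15 held more than 1 peak and 44 peaks in all. The largest held 7 peaks at Mir101c (chromosome 9, 3012742 to 3026014). In 25 of the 449, at least 1 peak of another neuronal list covered more than 1 common peak, so that their values in that list are shared. The peaks were assigned to 389 genes, 359 of them with 1 peak, 24 with 2 and 6 with 3 or more. The last were Mir101c with 15, Erdr1 with 11, G530011O06Rik with 7, and Gm5458, D3Ertd751e and Cdh9, a cadherin gene, with 3 each. Gm5458 peaks belonged to the set with many tags.

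The peaks assigned to Erdr1 on Y and G530011O06Rik on X lie in or next to the pseudoautosomal region, in which both sex chromosomes carry the same sequence. Of these 18 peaks, those inside the region may therefore hold reads from either. Which of them lie inside it and which next to it was not worked out here. At 3 dpi the 11 Erdr1 peaks had folds of 4.39 to 22.8 and the 7 of G530011O06Rik 1.69 to 27.4. A MEF peak overlapped 4 of the 11 and 2 of the 7. The longest Erdr1 peak holds the Gm52481 window printed above. Its folds were 7.36, 8.68, 9.66 and 10.1 at 1, 3, 5 and 7 dpi, with 7.22 in primary neurons, against 4.799 in MEF.

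Cdh9 and D3Ertd751e peaks lay between 321194 and 1798572 bp from the TSS of the assigned gene. The 3 Cdh9 peaks had 3 dpi folds of 9.10, 11.6 and 7.89, and a MEF peak overlapped 1 of them. The 3 of D3Ertd751e had 9.77, 6.97 and 7.15 and no MEF peak.

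Lists of genes were set against the 389 genes assigned to the 449 common peaks. The share over all annotated genes was not computed, so the counts do not say whether a list was met often or seldom. The other 3 dpi peaks, given beside them, number 998. Of 45 transcription factors of neuronal fate 3 had a common peak, and 3 had another 3 dpi peak. Pou3f2, a POU factor of neural development, had a peak 950787 bp from its TSS, with folds of 7.94, 9.54, 11.4 and 7.57 at 1, 3, 5 and 7 dpi, with 11.3 in primary neurons. St18, a zinc finger factor related to Myt1, had 7.41, 7.52, 11.1 and 7.84 at the 4 times and 10.5 in primary neurons. Neither had a MEF peak. Bcl11b, a zinc finger factor of cortical and striatal neurons, had a gene body peak with 12.5, 3.79, 6.02 and 11.5 at the 4 times, 7.74 in primary neurons and 7.21 in MEF.

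Among 47 genes for neuronal structure or synapses, 1 had a common peak, Elavl2, an RNA-binding protein of neurons, at 496081 bp from its start, and 3 had another 3 dpi peak. Of 48 imprinted genes 2 had one, Peg12 (folds of 6.13 to 9.58 in the neuronal libraries, no MEF peak) and Trappc9 (6.77 to 16.3, against 7.21 in MEF), and 4 had another 3 dpi peak. Of 23 genes of the DNA methylation machinery 1 had one, Zbtb24, a zinc finger gene that in humans is mutated in an immunodeficiency with loss of methylation (5.55 to 10.9, no MEF peak). Of 54 germline genes and of 48 fibroblast and mesenchymal genes 0 had one, while 2 and 3 had another 3 dpi peak. None of the common peaks of these genes was in the promoter class. Of 22 genes with many copies or linked to repeats 6 had a common peak, 22 peaks in all, and 4 had another 3 dpi peak, 14 in all. The 6 were Erdr1, G530011O06Rik, Pisd-ps1, Rn45s, Sfi1 and Tmem181b-ps.

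The 9 promoter peaks were at Vmn2r29, Snord37, Erdr1, Cartpt, 4930563M20Rik, Sfi1, Gm7120, Dux and Mir101c. Vmn2r29 had the highest minimum fold of the 9, with folds of 19.9, 12.0, 28.7 and 18.0 at 1, 3, 5 and 7 dpi, with 20.4 in primary neurons, against 7.26 in MEF. Gm7120 had 16.8, 12.6, 15.2 and 11.9 at the 4 times, 4.81 in primary neurons and 4.73 in MEF. Cartpt, the precursor gene of a neuropeptide of hypothalamus and reward circuits, had 10.5, 7.00, 8.61 and 6.35 at the 4 times, 6.24 in primary neurons and 5.73 in MEF. The peak of 4930563M20Rik had 7.59, 6.05, 7.23 and 5.46 at the 4 times, 10.2 in primary neurons and 6.65 in MEF. The 7 dpi value belongs to a peak that shared only 147 bp with this one, which spans 116801383 to 116801885. From 116801401 to 116801640 and from 116801661 to 116801900 the 7 dpi library had 0 scaled reads, as given below.

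Sfi1, a centrosomal gene with several copies, had 8.55, 4.98, 6.82 and 4.85 at the 4 times, 5.18 in primary neurons and 3.61 in MEF. Dux, a double homeobox factor of the early embryo that lies in a tandem array, had 5.63, 2.98, 5.62 and 3.06 at the 4 times, 3.08 in primary neurons and 3.57 in MEF. Snord37 and the Erdr1 promoter had no MEF peak. Snord37, a small nucleolar RNA gene within Eef2, which encodes a translation elongation factor, had 11.1, 7.02, 9.21 and 11.3 at the 4 times and 6.95 in primary neurons. The Erdr1 promoter had 22.6, 10.7, 19.2 and 10.9 at the 4 times and 6.44 in primary neurons.

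The authors also deposited tables of promoter regions listed as higher or lower than MEF, a readout that the choice of peaks did not use, though it comes from the same libraries. Of the common peaks 9 (2%, 0.921 to 3.77) overlapped a listed region, and 19 of the other 998 did (1.9%, 1.15 to 2.96). Over all 3 dpi peaks it was 1.94%, so that the share in common peaks is that of the list as a whole. Regions higher than MEF lay at 7 common peaks (1.56%) at 1 dpi, where 1.17% of all 3 dpi peaks had one. They lay at 6 (1.34%) at 3 dpi, 5 dpi and 7 dpi, where all 3 dpi peaks had 1.31%, 1.24% and 0.622%, and at 7 (1.56%) in primary neurons, where all had 0.968%. Regions lower than MEF lay at 0 common peaks at 1 dpi, where 0.138% of all 3 dpi peaks had one. They lay at 1 (0.223%) at 3 dpi, against 0.138% of all, at 1 (0.223%) at 5 dpi, against 0.0691%, at 5 (1.11%) at 7 dpi, against 0.691%, and at 3 (0.668%) in primary neurons, against 0.553%. In all 57 listed regions lay at the 9 peaks, 46 higher and 11 lower than MEF (80.7% higher). At the other 3 dpi peaks 57 were higher and 13 lower (81.4% higher), so the common peaks do not stand apart from them by this split. Over all 29411 listed regions, most of them at no 3 dpi peak, 12794 were higher and 16617 lower (43.5% higher). The 5 comparisons share the MEF library.

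Vmn2r29, Erdr1, Dux, Sfi1 and Snord37 each had a higher region in all 5 comparisons. The regions listed at a gene differed in length between comparisons, so the reads are not of exactly the same bases. At Vmn2r29 the region with the most reads had 204 against 53 in MEF at 1 dpi. It had 87 against 32 at 3 dpi and 449 against 113 at 5 dpi. The scaled reads there were 73.9 against 24.3 in MEF at 7 dpi and 134 against 40.4 in primary neurons. Another higher region at Vmn2r29 had 123 against 26 reads at 1 dpi and 26 against 4 at 3 dpi. At 7 dpi it had 25.4 against 3.46 scaled reads. At Erdr1 the values were 405 against 56, 183 against 49 and 402 against 62 reads at 1, 3 and 5 dpi, and 168.6 against 39.8 scaled reads at 7 dpi. So MEF had reads at the Erdr1 promoter where its list has no peak. Sfi1 had 930 against 321, 387 against 170 and 825 against 325 reads in MEF at 1, 3 and 5 dpi. The ratio to MEF at 1 dpi was 3.85 (exact counting interval 2.83 to 5.31) at Vmn2r29, 7.23 (5.46 to 9.74) at Erdr1 and 2.90 (2.55 to 3.30) at Sfi1. Depth was not given, so a ratio at 1, 3 or 5 dpi includes any difference in sequencing depth.

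Cartpt had a higher region at 1, 3, 5 and 7 dpi. Its reads were 55 against 14 in MEF at 1 dpi (ratio 3.93, 2.16 to 7.65), 24 against 2 at 3 dpi (12.0, 2.98 to 105) and 37 against 9 at 5 dpi (4.11, 1.95 to 9.69). The scaled reads at 7 dpi were 20.8 against 2.6. No region at Cartpt was listed for primary neurons. These regions were centred between -1167 and -1217 bp from the TSS.

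**Figure D5:**
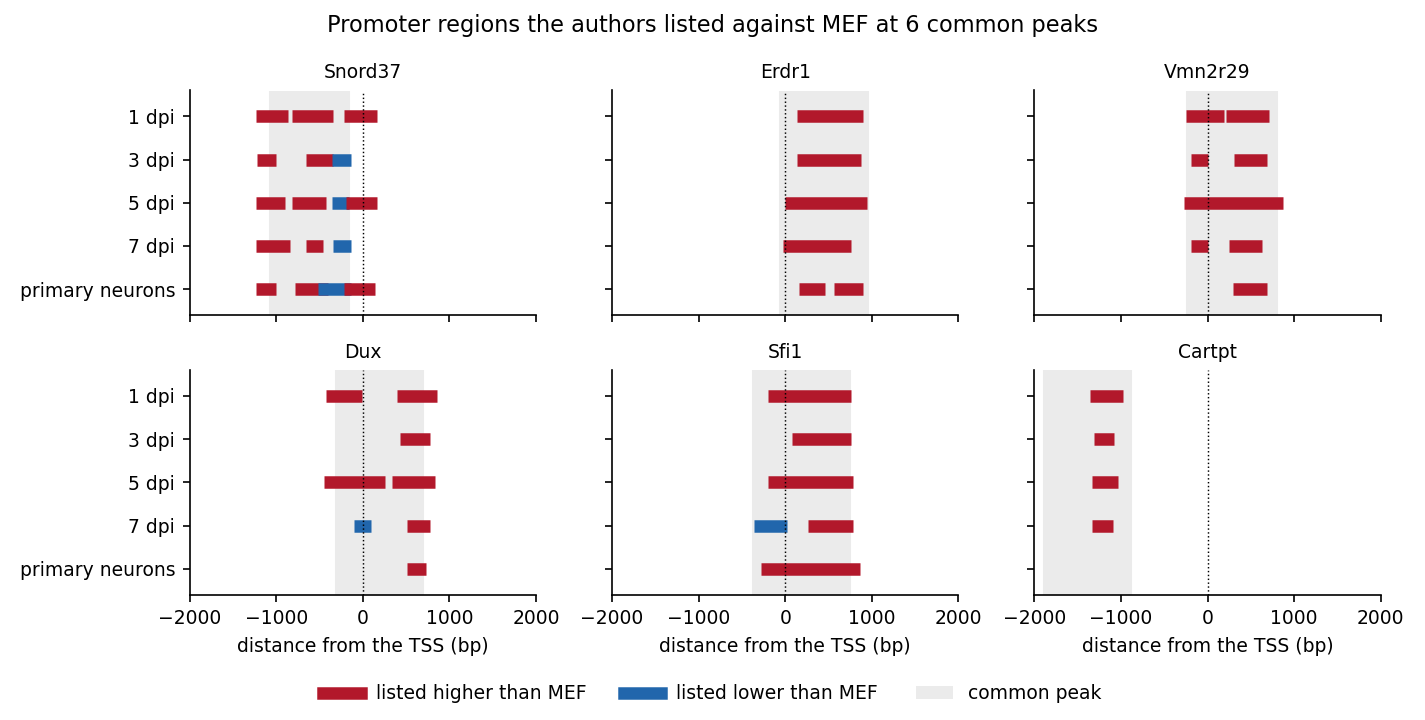
Regions that the authors listed higher (red) or lower (blue) than MEF at 6 promoter peaks common to the neuronal libraries, by distance from the TSS in bp along the gene's strand, with 1 row for each comparison; the grey band is the common peak and the dotted line the TSS. At Snord37 a blue region lies nearer to the TSS than 2 red ones in 4 of the 5 rows, and at 5 dpi and in primary neurons another red one lies on its other side; at Cartpt the 4 red regions lie in the same place.

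Snord37 had regions in both directions. Higher ones were centred at -1110 and -500 bp from the TSS at 3 dpi, with 17 against 0 and 50 against 2 reads in MEF, and a lower one at -250 bp, with 2 against 21 (ratio 0.0952, 0.0108 to 0.390). The last 2 regions shared 20 bp. At 5 dpi the lower region at -260 bp had 3 against 21 reads, between higher ones with 50 against 9 at -620 bp and 30 against 3 at -20 bp. At 7 dpi it had 0 against 18.2 scaled reads at -240 bp, and in primary neurons 1.93 against 23.8 at -330 bp. In primary neurons the lower region shared 120 bp with a higher one (42.5 against 9.32) and 80 bp with another (21.3 against 3.11). No lower region was listed at 1 dpi, where reads were 80 against 11 in MEF at -580 bp and 33 against 3 at -30 bp. The peak list of MEF has no peak here, although MEF had reads in the regions listed as lower. In RefSeq this peak of the authors' promoter class lies in the span of Eef2.

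Lower regions were also listed at 7 dpi for Dux (6.93 against 31.2 scaled reads), Sfi1 (48.5 against 151), 4930563M20Rik (0 against 12.99 and 0 against 16.45) and Rn45s (568 against 1245). In primary neurons they were listed for Gm7120 (9.66 against 47.6) and Rn45s (0 against 17.6), and Gm7120 also had a higher region there (33.8 against 8.28), centred 421 bp downstream of the TSS. Dux, Sfi1 and Rn45s are known to have near-identical copies, whose part in these values was not tested. For 4930563M20Rik at 1 dpi, a log2 fold change of 3.64 and a p-value of 1.48e-06 stand in the authors' deposited table, from 25 reads against 2 in MEF. In primary neurons a higher region was also listed at that gene, with 25.1 against 2.07 scaled reads.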

How the data were processed

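MeDIP-seq libraries of 6 groups, 1 each, were compared by their deposited peak lists and promoter tables. CASAVA, Bowtie2 2.1.0 and the mm10 build are named in the submitters' processing notes; of the peak caller, the tests, the thresholds and the library totals nothing is given in the sources used here. Per the file headers, the authors' peak lists give for each peak a length, the summit's tag count, its fold enrichment (a ratio) and the −log10 of a q-value. Their class and assigned gene are used as deposited. Per the file headers, the authors' promoter tables hold regions listed higher or lower than MEF, with read counts of both libraries at 1, 3 and 5 dpi, a scaled signal at 7 dpi and in primary neurons, a log2 fold change and a p-value. A read of the 7 dpi library is worth 1.15 and a MEF read 0.866 in that comparison; a primary neuron read is worth 0.966 and a MEF read 1.03 in the other. All values up to 25 come out whole within 0.1 read. No other per-sample columns were found.

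Lists were read with each position once and compared by an overlap of at least 1 bp in Python 3.11.15 (numpy 2.4.6, pandas 2.3.3, scipy 1.17.1, matplotlib 3.10.9), with code tested on simulated peaks. Where several peaks of a list overlap a common peak, the highest fold is given with its tags. Shares carry exact Clopper-Pearson 95% intervals, and ratios of reads exact conditional ones. Both cover counting error only: no molecular identifiers are mentioned, so reads may be copies of the same molecule. With 1 library a group, no condition was tested.

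The peaks and gene lists were chosen with earlier results of these data known. Named are all promoter peaks, the 10 gene body and 10 intergenic peaks of highest minimum fold, the 5 longest, those assigned to genes of the lists or to a gene with 3 or more, those at listed regions and the 10 of highest MEF fold. Some more were named outside these rules after their values were seen, among them Txndc11, Pfdn4, Prkab2, Hspb3 and Dpysl5. Sequences and gene spans are RefSeq's for GRCm38.p6; the sequence of whole peaks was not used here.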

Additional observations from a re-analysis of the deposited data

Results flagged for a closer look

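At 4 promoters with a common peak, regions listed in opposite directions against MEF in different comparisons covered the same bases. At Snord37 this was also so within a comparison, over 20 bp at 3 dpi, 40 bp at 5 dpi and 120 and 80 bp in primary neurons. The differences between the comparisons were not tested, and each rests on 1 library a group and on the same MEF library. At Sfi1, 300 bp of a region higher in primary neurons (787 against 370 scaled reads in MEF) lay in a region lower at 7 dpi (48.5 against 151). At Dux, 200 bp of a region higher at 5 dpi (194 reads against 79 in MEF) lay in one lower at 7 dpi (6.93 against 31.2 scaled reads). At Snord37, 180 bp of a region higher at 1 dpi (80 reads against 11 in MEF) lay in one lower in primary neurons (1.93 against 23.8 scaled reads). At 4930563M20Rik, 80 bp of a region higher at 1 dpi (25 reads against 2 in MEF) lay in one lower at 7 dpi (0 against 12.99 scaled reads). Sfi1 and Dux are known to have near-identical copies, whose part in these values was not tested.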

How the results depend on the processing

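The number of common peaks was 449 and stayed within 1.5 times of that under 14 of the 15 alternatives tried. Several of these count the same overlaps from another list, merge neighbours or leave out a small part of the peaks, and could hardly move this number. With equal numbers of peaks in every list, taken by −log10 q, it was 213, the MEF share 52.1% and the median length 668 bp. The MEF share, 41.9%, moved to 33% with a fold enrichment of at least 5 in every list, MEF included (38.5% of the same 379 peaks overlapped a MEF peak of any fold), to 36.2% when a 1 dpi peak was not required and to 37.1% when a primary neuron peak was not required. It stayed within its interval under the other 11 alternatives. The share of the other 3 dpi peaks was 11.2%, 9.72% at a fold of at least 5 and 13% with equal numbers. Median length, 624 bp, was 759 bp with the 5 dpi list counted in place of the 3 dpi list, 672 bp with the 7 dpi list and 657 bp with the primary neuron list, whose peaks are then the ones measured. The promoter share, 2%, kept within its interval under all 15. Leaving out peaks of at least 1000 tags was chosen after the data were seen. The listed promoter regions at common peaks numbered 57, of which 46 were higher and 11 lower than MEF. At the other 3 dpi peaks 57 were higher and 13 lower, and over all listed regions 12794 and 16617. Counted within 1 kb of a common peak, the regions numbered 94, with 73 higher and 21 lower. With a deposited p-value of at most 1e-05 there were 7 lower ones at common peaks. No paired analysis was possible because each group has 1 library. Depth is unknown, so a peak missing from a list may have been too weak to be listed there.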
